A study of Mus musculus with 22 samples.

Results

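Messenger RNA of the mouse hypothalamus was compared between 4 days and 6 h of treatment with celastrol, on 7 of the 22 arrays of the series. The arrays were chosen by their titles, which name lean mice, celastrol and the time, and comprised 3 arrays at 4 days and 4 arrays at 6 h. All mice of both groups were lean C57BL/6J males, 8 weeks old, on a chow diet for 2 weeks, and the drug was given into the peritoneum. A dose of 250 µg/kg stands in the labels for the 6 h mice, whereas for the longer treatments they name a volume of 100 µl with 25 µl of DMSO per day, so the sources leave the dose at 4 days unstated. Mice of the same kind that received DMSO, the solvent, served at the same times (4 arrays at 6 h and 4 at 4 days), and 3 further celastrol arrays came from 1 day. The labels speak of biological replicates and do not say how many animals gave RNA to an array. No array batch is named, so time and array batch cannot be told apart.

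Celastrol is a triterpenoid from the root of the thunder god vine. It is known for lowering food intake and body weight in obese mice through the leptin pathway, and in cultured cells for inhibiting NF-kB and activating the heat shock response. The hypothalamus holds the neurons that control feeding, thirst and the pituitary, together with astrocytes, oligodendrocytes, blood vessels and microglia, the resident macrophages of the brain.

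Values are log2 intensities, so a difference of 1 is a doubling of signal. The medians of the 7 arrays lay between 8.59 and 8.66, and an array correlated with the others of its group at 0.99667 to 0.99765. The labelled region carried its markers on all 7 arrays: Pmch, the melanin-concentrating hormone precursor, read 12.83 to 13.13, Hcrt, the orexin precursor, 12.55 to 12.94, and Oxt, the oxytocin precursor, 11.59 to 12.30. The 4-day array of replicate 2 stood apart in many markers of neighbouring tissue, but not in all. Gh, growth hormone of the pituitary, read 11.16 on it and 7.57 to 8.26 on the other 6 arrays. Prl, prolactin, read 10.33 on it and 6.03 to 6.54 on the others, and Ogn, a meningeal proteoglycan, read 9.02 against 7.21 to 7.70. The gap was smaller for the pituitary marker Cga (11.08 against up to 10.65) and the meningeal marker Dcn (11.02 against up to 10.84). Of 2 choroid plexus markers, Kcnj13 read 9.034 against 6.934 to 7.532, but Ttr read 7.041, within the 6.925 to 7.616 of the others. The mean log2 level of 7 pituitary markers was 10.05 on that array, 8.92 and 8.93 on the other 4-day arrays, and 8.87 to 9.38 at 6 h. The mean log2 level of 11 meningeal and fibroblast markers was 10.02 on that array, 9.25 and 9.10 on the other 4-day arrays, and 9.11 to 9.42 at 6 h. In each of these lists 2 markers were above the array median on a 4-day celastrol array but on 0 of the 6 h ones. With no filter on level, the means of all 13 measured pituitary markers were 7.89 to 8.20 at 6 h and 7.87 to 8.97 at 4 days. Those of all 17 meningeal and fibroblast markers were 8.56 to 8.82 and 8.54 to 9.30. Without the 4-day array of replicate 2, 15 genes were called. Of these, 14 were among the 151 with all arrays: Arf1, Cdkn2aipnl, Crbn, Gjb6, Idh1, Ifi30, Leng8, Ly86, Mfsd2a, Naa20, Nfkbia, Opalin, Rtf2 and Tanc2. Every other celastrol call named in the text was lost without that array.

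Between 6 h and 4 days of celastrol 151 of 9880 tested genes (1.53%) changed at an adjusted p under 0.05 (limma, Benjamini-Hochberg over all tested genes). Of these, 81 (0.82%) were higher and 70 (0.709%) lower at 4 days. The changes were small: the median size was 0.25 on the log2 scale, the largest rise was 1.51-fold and the largest fall 1.46-fold. In all 151 genes the 3 arrays at 4 days lay entirely to one side of the 4 arrays at 6 h, which was also the case in 1837 of all tested genes (18.6%), 1194 of them higher and 643 lower. At an unadjusted p under 0.05 stood 1778 genes (18.0%), where 494 would be 5% of those tested. The share of rises among the calls was 53.6%, but 42.5% after quantile normalization was repeated and 30.2% after the array medians were set equal, so the balance of rises and falls depends on the scaling.

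One group among the rises was made of genes that microglia express. Of 15 tested microglia and macrophage markers, 4 (26.7%) were called higher at 4 days (Ctss, Siglech, Laptm5 and Csf1r) and 0 lower. Over all tested genes 0.82% were called higher. Another 10 lay above 0 without passing, and 1, P2ry13, lay below. The median change of the 15 was 0.12, against 0.02 over all tested genes and -0.00 for the same markers in the DMSO arrays, where 6 of 15 lay above 0 and 0 passed. In bulk tissue, more cells of a type and more RNA per cell cannot be told apart.

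Ctss encodes cathepsin S, a lysosomal protease of antigen-presenting cells. It read 9.77, 9.78, 9.78 and 9.61 on the 6 h arrays of replicates 1 to 4, and 10.042, 10.108 and 9.996 on the 4-day arrays of replicates 1 to 3. All 4-day arrays lay above all 6 h arrays, for a 1.24-fold rise (log2 change 0.32, SE 0.07, limma adjusted p = 0.0353). In DMSO its change was -0.10 (adjusted p = 0.483). Csf1r, the receptor for the growth factor that microglia need to survive, read 10.14, 10.06, 10.15 and 10.14 at 6 h and 10.29, 10.39 and 10.29 at 4 days. It rose 1.15-fold (log2 change 0.20, SE 0.05, limma adjusted p = 0.0464), again without overlap between the groups. Laptm5, a lysosomal membrane protein of immune cells, rose by 0.23, and Siglech, a lectin of microglia, by 0.25. Fcrls, another microglial gene, had a change of 0.33 and an adjusted p of 0.0657, and P2ry13, a purinergic receptor, one of -0.21 with an adjusted p of 0.0663.

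**Figure D1:**
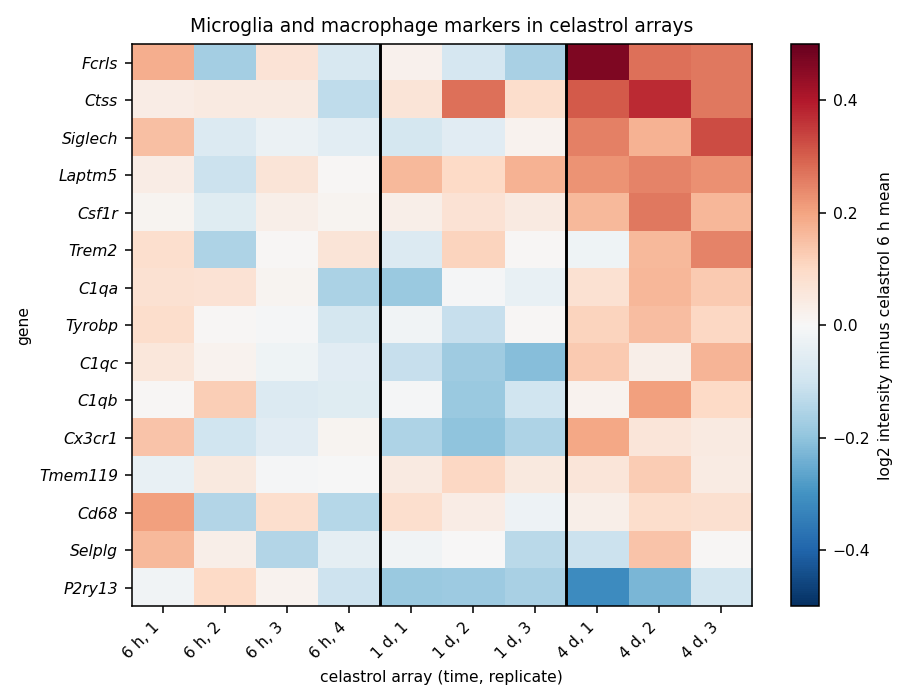
Heat map of the 15 tested microglia and macrophage markers (rows) on the 10 celastrol arrays (columns, time and replicate), coloured by log2 intensity minus the 6 h celastrol mean of the gene. The 3 columns at 4 days are red in most rows, from Fcrls (change 0.33) at the top to P2ry13 (-0.21) at the bottom, while the 1 day columns are mixed.

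Several of the largest rises of the whole comparison were also in genes known from microglia, although they stood on none of the marker lists and were grouped after their values were seen. Ly86 encodes MD-1, which binds the Toll-like receptor homologue RP105. It read 10.43, 10.35, 10.45 and 10.28 at 6 h and 11.15, 10.84 and 10.73 at 4 days, with replicate 1 highest and no overlap. The rise was 1.44-fold (log2 change 0.53, SE 0.08, limma adjusted p = 0.00314), whereas DMSO changed by 0.05. Ifi30, a thiol reductase of the lysosome, read 8.45, 8.55, 8.64 and 8.50 at 6 h and 8.97, 8.94 and 8.86 at 4 days. It rose 1.31-fold (log2 change 0.39, SE 0.06, limma adjusted p = 0.00627). Pld4, an endolysosomal exonuclease, rose by 0.38, and Cd33, an inhibitory lectin that binds sialic acid, by 0.32. Alox5ap, P2rx7 and Lpcat2 rose by 0.25, 0.21 and 0.26. In DMSO all 7 of these genes also lay above 0, with a median of 0.10 against 0.32 in celastrol, and 0 were called. A further 10 tested genes enriched in microglia were also listed after the data were seen. As the called genes were grouped apart from them, their 0 calls are no result. Of the 10, 3 had an unadjusted p under 0.05 (limma) and all 10 lay above 0, with a median of 0.09. In DMSO 2 of 10 lay above 0, with a median of -0.02. With a list chosen in this way these counts are a description. Markers of perivascular macrophages, leukocytes and blood cells did not reach the level required for testing in any of 19 measured members, and their mean level was 6.68 to 6.75 at 6 h and 6.66 to 6.77 at 4 days.

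How firmly these calls stand differs between genes. Of the 7 genes grouped afterwards, only Ly86 and Ifi30 were called without the 4-day array of replicate 2, where Pld4 had 0.31 (adjusted p = 0.117), Cd33 0.33 (0.0629) and Alox5ap 0.17 (0.218). Ly86 and Ifi30 passed whichever of the 7 arrays was left out, with log2 changes from 0.41 to 0.62 and from 0.36 to 0.42. The 4 called markers of the list were weaker: with any 1 array left out, between 0 and 2 of the 15 markers passed as higher, and 0 did without the 4-day array of replicate 2. The median of the list was 0.11 without that array and 0.09 to 0.15 over all 7 omissions. After quantile normalization was repeated the median was 0.10, with Siglech higher and P2ry13 lower at an adjusted p under 0.05. P2ry13 was also called lower after the array medians were set equal, beside Ctss, Laptm5 and Siglech as higher. Without the 4-day array of replicate 3, P2ry13 was the only marker of the list called, again as lower.

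**Figure D2:**
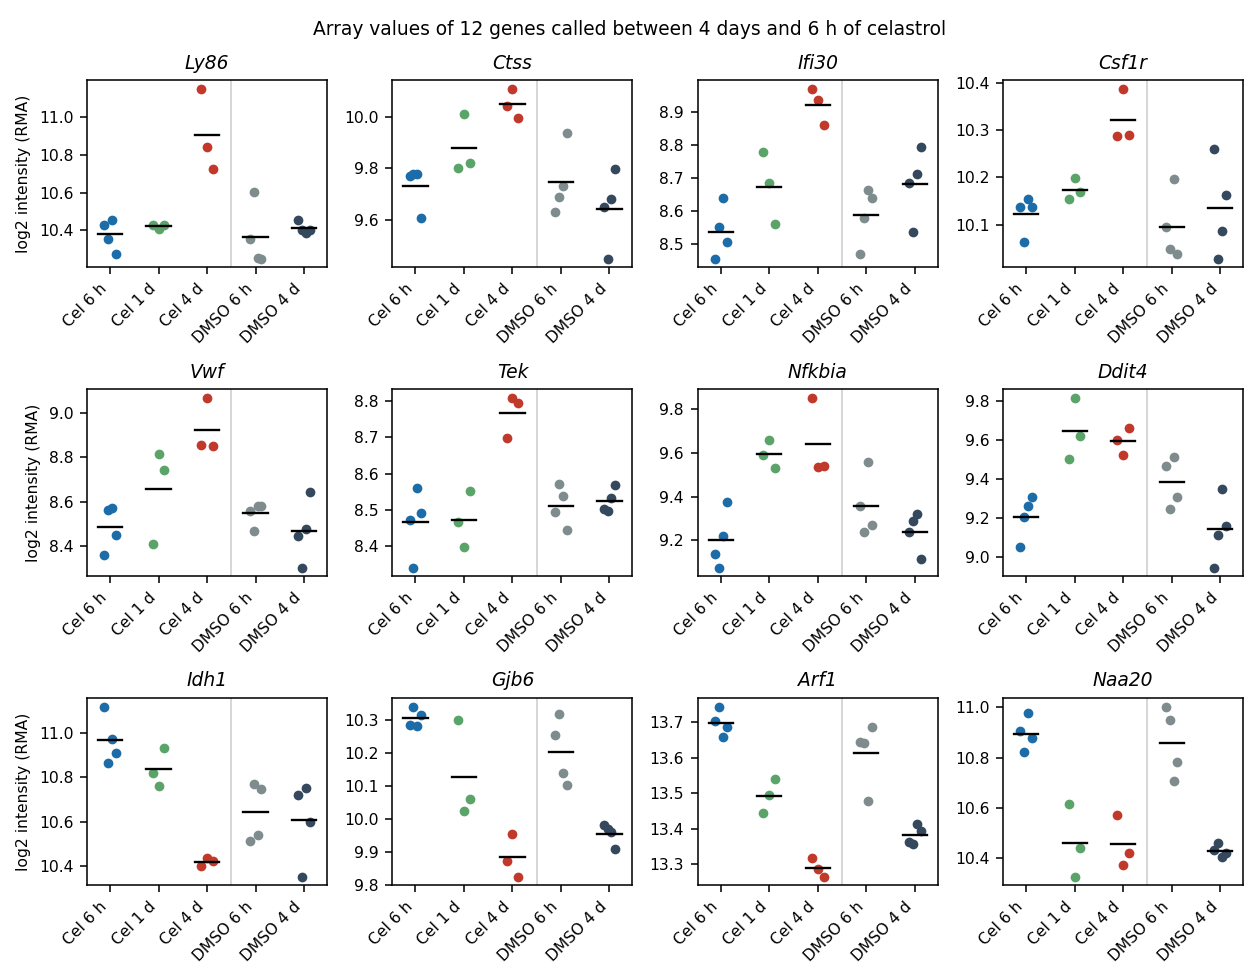
Log2 intensities of 12 called genes on single arrays: 4 known from microglia in the top row, then Vwf, Tek, Nfkbia and Ddit4, then 4 genes that fell. Each point is 1 array, bars are group means, celastrol stands left of the grey line and DMSO right of it, and each panel has its own vertical axis. In every panel the 3 points at 4 days of celastrol lie apart from the 4 points at 6 h.

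Few genes of the blood vessel wall were called. Of 17 tested endothelial and pericyte markers 1 passed (5.88%, against 1.53% of all tested genes). This was Tek, the angiopoietin receptor of endothelial cells. It read 8.47, 8.34, 8.56 and 8.49 at 6 h and 8.70, 8.81 and 8.79 at 4 days, a 1.23-fold rise (log2 change 0.30, SE 0.05, limma adjusted p = 0.00911) against 0.01 in DMSO. The groups did not overlap. Vwf, von Willebrand factor, which endothelial cells store and release for platelet adhesion, read 8.36, 8.56, 8.57 and 8.45 at 6 h and 8.86, 9.07 and 8.85 at 4 days. It rose 1.35-fold (log2 change 0.44, SE 0.09, limma adjusted p = 0.0207), and its DMSO change was -0.08. Ptprb, the endothelial phosphatase that acts on Tek, rose by 0.31, a gene picked out after its value was seen. Of the 17 markers 14 lay above 0, with a median of 0.11 (DMSO 0.05), while the tight junction gene Cldn5 stood at -0.13 and Egfl7 at -0.15, neither of them called. Mfsd2a, a transporter of the same vessels, was among the largest falls. Both Tek and Vwf were above their array's median on 0 of the 6 h celastrol arrays, as were Acr, Rtl4, Ulk3 and a microRNA gene among the rises, so they entered the test through arrays of other groups and their calls are no support for a vascular change. With no filter on level the adjusted p of Vwf was 0.0529 and that of Tek 0.0274. Without the 4-day array of replicate 2 the adjusted p of Tek was 0.0538 and that of Vwf 0.127, with log2 changes of 0.28 and 0.36, and Vwf was not called without 6 h replicate 1 or 4-day replicate 1 either. Meningeal and fibroblast markers had a median of 0.29 with 9 of 11 above 0 and 0 called (limma). An unadjusted p under 0.05 was also reached by 0 of 11. Without that array the median was -0.03 with 5 of 11 above 0. Among the 11, 2 were above the array median on a 4-day celastrol array but on 0 of the 6 h celastrol arrays, so the 0.29 is no support for a change. Over all 17 measured members, with no filter on level, the median was 0.15, with 13 above 0 and 4 below. The part of neighbouring tissue in the vascular rises was not tested further.

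Nfkbia and Ddit4 rose after 6 h and were already high at 1 day. Nfkbia encodes the inhibitor that holds NF-kB in the cytoplasm and is itself switched on by NF-kB. It read 9.14, 9.08, 9.22 and 9.37 at 6 h and 9.85, 9.54 and 9.54 at 4 days, without overlap. The rise was 1.36-fold (log2 change 0.44, SE 0.09, limma adjusted p = 0.0163), and the 1 day arrays read 9.59, 9.66 and 9.53. In DMSO it moved by -0.11 (adjusted p = 0.507). Ddit4, an inhibitor of mTORC1 signalling that stress and glucocorticoids induce, read 9.05, 9.21, 9.26 and 9.31 at 6 h, 9.50, 9.82 and 9.62 at 1 day and 9.60, 9.52 and 9.66 at 4 days. It rose 1.31-fold (log2 change 0.39, SE 0.09, limma adjusted p = 0.0295), while DMSO had -0.24 (adjusted p = 0.193). The call of Nfkbia was lost without 6 h replicate 2 (adjusted p = 0.0544) or 4-day replicate 1 (0.086), and that of Ddit4 without 6 h replicate 1 or 2 or any 1 of the 4-day arrays (adjusted p up to 0.0992).

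The 250 bases before the start of Nfkbia are shown because a site for NF-kB lies close to the start of this gene, which was among the largest rises. They come from RefSeq (GRCm38.p6, chr12:55492648-55492897, minus strand) and are written 5′ to 3′ along the gene, with the letters GGAAATTCC, a form of the NF-kB motif, in capitals at 29 to 21 bases before the start.
Nfkbia: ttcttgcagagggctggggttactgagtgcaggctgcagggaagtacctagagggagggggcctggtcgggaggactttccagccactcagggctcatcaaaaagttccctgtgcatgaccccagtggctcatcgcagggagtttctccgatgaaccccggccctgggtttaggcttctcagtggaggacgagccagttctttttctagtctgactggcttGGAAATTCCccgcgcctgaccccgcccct
The motif, searched on both strands over 250 bases, was present in 94 of 32851 promoters (0.286%) and in 25 of 8038 promoters of tested genes (0.311%). Among called genes with a promoter in the table it was found in 1 of 61 higher genes, Nfkbia, and in 2 of 50 lower genes, Fam107a and Rnf181. Motifs of the E-box (CACGTG) and PU.1 (GAGGAAGT) were searched in the same way. The E-box was found in 11.5% of higher, 4.0% of lower and 10.3% of tested genes with a promoter. For PU.1 the shares were 3.28%, 4.0% and 2.49%. A match is a description of letters, and binding was not measured.

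Other genes of these pathways gave few calls. Of 13 tested members of the list of interleukin-1, NF-kB and acute-phase genes, Nfkbia passed as higher and 0 as lower. The share called was 7.69%, against 1.53% of all tested genes. Ptgs2, the inducible cyclooxygenase, read 7.60, 8.19, 8.65 and 8.17 at 6 h and 8.87, 8.67 and 8.30 at 4 days, so that the groups overlapped (log2 change 0.46, adjusted p = 0.153). Lcn2, the acute-phase protein lipocalin 2, ranged from 6.98 to 10.48 over the 6 h arrays and from 7.78 to 9.70 over the 4-day arrays, with a change of 0.05 (SE 0.60). Osmr, the oncostatin M receptor subunit, had a change of 0.19 (SE 0.18), within the spread of its arrays. Serpina3n, an acute-phase protease inhibitor, stood at -0.26 (adjusted p = 0.0666).

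Of 22 tested glucocorticoid-induced genes 3 were called (13.6%, against 1.53% of all tested genes). Nfkbia and Ddit4 passed as higher and Fam107a as lower, and the median was -0.05 in celastrol and in DMSO alike. Sgk1, a kinase that glucocorticoids induce, read 9.18, 9.50, 9.59 and 10.16 at 6 h and 10.32, 10.27 and 10.03 at 4 days. The groups overlapped through 6 h replicate 4, and the log2 change of 0.60 did not pass (SE 0.21, adjusted p = 0.135). In DMSO Sgk1 moved the other way, by -0.62 (SE 0.19, adjusted p = 0.168). Fkbp5, another standard target, had -0.04 (SE 0.13). Fam107a, an actin-binding protein of astrocytes and neurons, fell by 0.23 (adjusted p = 0.0257), with -0.19 in DMSO. Socs3, Lepr and Fos lay below the level required for testing.

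Among the falls, Idh1, the cytosolic NADP-dependent isocitrate dehydrogenase, changed most. It read 11.12, 10.86, 10.97 and 10.91 at 6 h and 10.40, 10.44 and 10.42 at 4 days, 1.46-fold lower (log2 change -0.54, SE 0.09, limma adjusted p = 0.00313). The DMSO arrays at 6 h read 10.51, 10.77, 10.54 and 10.75, below all 4 celastrol arrays of that time, and their change to 4 days was -0.04. Mfsd2a, the transporter of omega-3 lysolipids at the blood-brain barrier, read 11.47, 11.85, 11.73 and 11.75 at 6 h and 11.04, 11.29 and 11.20 at 4 days, 1.43-fold lower (log2 change -0.52, SE 0.09, limma adjusted p = 0.0103). Its DMSO change was -0.21 (adjusted p = 0.252). Among 27 tested genes of sterol and fatty acid synthesis 1 was called (3.7%, against 1.53% of all tested genes). This was Msmo1, a demethylase of cholesterol synthesis (log2 change -0.28, limma adjusted p = 0.0257). Of the 27, 17 lay below 0, with a median of -0.05 against 0.01 in DMSO. Hacd2, a dehydratase of very long chain fatty acid elongation, fell by 0.34.

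Of 22 tested astrocyte markers 1 was called (4.55%, against 1.53% of all tested genes). This was Gjb6, connexin 30 of astrocyte gap junctions. It read 10.28, 10.34, 10.28 and 10.32 at 6 h and 9.87, 9.96 and 9.83 at 4 days, 1.34-fold lower (log2 change -0.42, SE 0.06, limma adjusted p = 0.00175), and the groups stood well apart. In DMSO it changed by -0.25 (adjusted p = 0.0639). With Gjb6 included, 15 of the 22 astrocyte markers lay below 0, with a median of -0.06; Slc1a2, the main glutamate transporter, stood at 0.00 and Gfap at 0.07. After the array medians were set equal, Mlc1 and Hepacam passed as lower as well. Among 17 tested myelin markers 1 was called (5.88%, against 1.53% of all tested genes). It was Opalin, a membrane protein of oligodendrocytes, higher by 0.45 (limma adjusted p = 0.0135), with 0.31 in DMSO (adjusted p = 0.108). Mbp stood at -0.02.

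Some of the strongest falls were shared with DMSO. Arf1, the GTPase that recruits coats to Golgi vesicles, had the lowest adjusted p of the comparison (3.21e-04, limma). It read 13.70, 13.74, 13.66 and 13.69 at 6 h and 13.32, 13.29 and 13.27 at 4 days, 1.32-fold lower (log2 change -0.41, SE 0.05), and it also fell in DMSO, by 0.23 (adjusted p = 0.0335). Naa20, the catalytic subunit of an amino-terminal acetyltransferase, read 10.90, 10.82, 10.98 and 10.88 at 6 h and 10.57, 10.37 and 10.42 at 4 days. Its change was -0.44 in celastrol (adjusted p = 0.00313) and -0.43 in DMSO (adjusted p = 0.00803). Ociad2, Scrg1, Rtf2, Iscu and Cdkn2aipnl fell and Leng8 and Nucks1 rose in both treatments. These 9 genes are 5.96% of the 151 celastrol calls and 36.0% of the 25 genes (0.253%) called between 6 h and 4 days of DMSO. The DMSO calls were not stable. With only the groups compared 0 genes passed in DMSO (Naa20 had a limma adjusted p of 0.0729), and with no filter on level 1 did.

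Across the 151 called genes the DMSO change had the same sign in 140, where 71.1% of all tested genes had the same sign in both treatments. It was the smaller of the pair in 149. The 81 higher genes had a median change of 0.26 in celastrol and 0.11 in DMSO, and the 70 lower genes -0.25 and -0.11. As the genes were selected on the celastrol change, these counts are a description. Opposite signs were seen in 11 genes, namely Bhlhe40, Ctss, Dclre1b, Ddit4, Id2, Kpna1, Mtmr6, Nfkbia, Vwf and a pair of small non-coding RNAs.

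**Figure D3:**
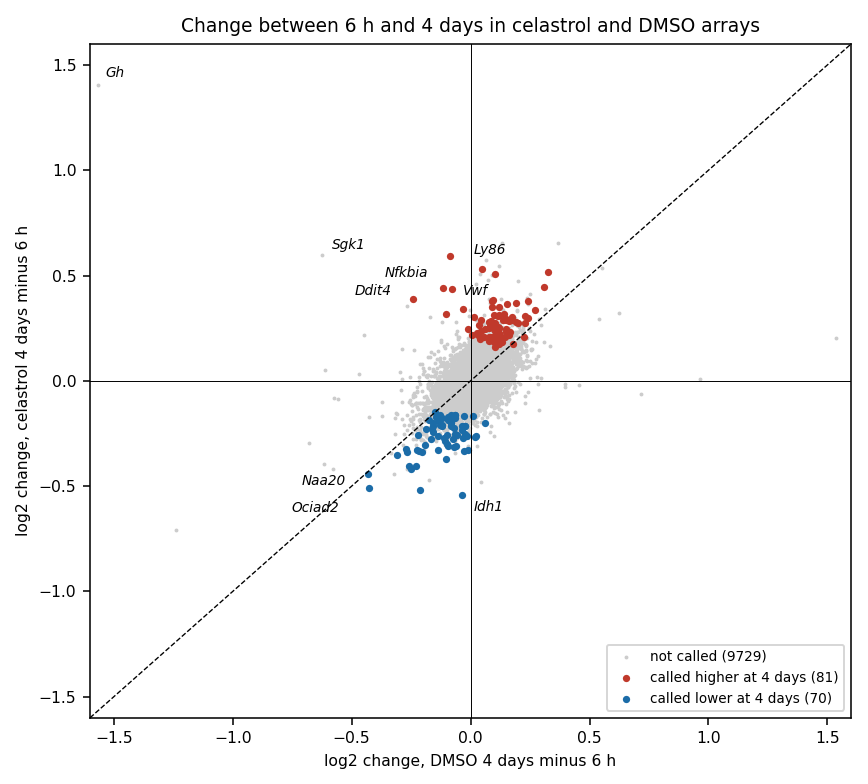
Log2 change between 6 h and 4 days in DMSO (horizontal) and in celastrol (vertical) of the 9880 tested genes; points are genes, red and blue those called in celastrol, and the dashed line marks equal change. The 81 red and 70 blue points lie farther from 0 on the vertical than on the horizontal axis in 149 of 151 cases, and Naa20 and Ociad2 lie near the dashed line.

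Whether the change over time differed between celastrol and DMSO was tested as the difference of the changes. This passed in 0 of 9880 genes (0.0%) with limma, and in 0 with its trended variance; an unadjusted p under 0.05 was reached by 334 genes (3.38%), 113 with the more positive change in celastrol and 221 with the more negative. Ddit4 came nearest, with a difference of 0.63 (95% interval 0.38 to 0.88, adjusted p = 0.28). Among other named genes the difference was 1.22 in Sgk1 (interval 0.64 to 1.81, adjusted p = 0.474), 0.55 in Nfkbia (0.30 to 0.80), 0.52 in Vwf (0.26 to 0.78), -0.51 in Idh1 (-0.75 to -0.27), 0.48 in Ly86 (0.25 to 0.72) and 0.42 in Ctss (0.21 to 0.63), with adjusted p-values of 0.474 as well. The intervals are not adjusted for the number of genes tested. The microglia markers had a median difference of 0.12, with 14 of 15 above 0. None of the 151 calls is therefore shown to be particular to celastrol by this test.

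The remaining genes with the largest changes had diverse roles. Kmt2b, a histone methyltransferase that marks active promoters, read 9.56, 9.55, 9.50 and 9.54 at 6 h and 9.86, 9.83 and 9.86 at 4 days, a narrow spread within each time and a rise of 0.31 (SE 0.07, limma adjusted p = 0.022). Zkscan2, a zinc finger protein, rose by 0.37 and Arpc5l, a subunit of the actin-nucleating Arp2/3 complex, by 0.35. Acr, the sperm protease acrosin, rose by 0.37, and Amy1, an amylase, by 0.33. Whether the probes of Amy1 also read other amylase genes was not tested. Copz1, a subunit of the coat that Arf1 recruits to Golgi vesicles, read 11.51, 11.50, 11.61 and 11.43 at 6 h and 11.13, 11.02 and 11.39 at 4 days. It fell by 0.33 (adjusted p = 0.0262) with replicate 3 nearest to the 6 h arrays, and its DMSO change was -0.03. Without the 4-day array of replicate 2 the change was -0.25 (adjusted p = 0.164), and the call held in 2 of 7 omissions of an array. Ube2d2a, a ubiquitin-conjugating enzyme, fell by 0.33 with -0.01 in DMSO, and had -0.25 (adjusted p = 0.218) without that array. Lsm3, of the U6 spliceosomal particle, fell by 0.34 and Med11, of the Mediator complex, by 0.33, with DMSO changes of -0.27 and -0.22; without that array Lsm3 had -0.28 (adjusted p = 0.169). Hr, a nuclear corepressor, fell by 0.37 (DMSO -0.10).

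The 1 day arrays lay mostly in between. In 138 of the 151 called genes (91.4%) the celastrol mean at 1 day stood between the means at 6 h and at 4 days, against 41.7% of all tested genes. The called genes were selected for a wide gap between those times, in which another mean falls more often, so the shares are a description. Naa20 had reached its later level by 1 day, at 10.61, 10.33 and 10.44. Ly86 had not left its earlier level, at 10.43, 10.41 and 10.43, and Tek had not either, at 8.47, 8.40 and 8.55. Ddit4 and Siglech were among the 13 genes whose 1 day mean lay outside: that of Ddit4, 9.65, stood above the 4-day mean of 9.60, and that of Siglech, 8.53, below the 6 h mean of 8.57.

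Genes of the stress pathways tied to celastrol in cultured cells gave no call on their lists. Of 21 tested heat shock and cochaperone genes 0 passed (limma; 9 had an unadjusted p under 0.05), 17 lay below 0 and the median was -0.07, with -0.01 in DMSO. Hsph1, a cochaperone of Hsp70, had -0.18 (adjusted p = 0.0683) and passed as lower after the array medians were set equal. Hspa1a, inducible Hsp70, had -0.25 (adjusted p = 0.105); it has a near-identical copy, so its probes may read both. Outside that list Hspa2, a further member of the Hsp70 family, fell by 0.41 (adjusted p = 0.0129). In the unfolded protein response 0 of 26 tested genes passed (limma; 6 had an unadjusted p under 0.05), and Hspa5, its standard reporter, had -0.04 (SE 0.05). Among 19 tested NRF2 targets 0 passed (limma; 5 had an unadjusted p under 0.05), with a median of -0.02.

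Feeding neuropeptides and their receptors gave 0 calls among 16 tested genes (limma; 3 had an unadjusted p under 0.05). Pomc, precursor of the melanocortin that reduces feeding, read 8.75, 8.37, 8.98 and 8.71 at 6 h and 8.28, 8.82 and 8.53 at 4 days (log2 change -0.16, SE 0.14). Npy, which stimulates feeding, read 10.53, 10.73, 10.89 and 10.58 at 6 h and 10.68, 10.78 and 11.08 at 4 days (0.16, SE 0.15). In both the groups overlapped. The leptin and JAK-STAT3 list also had 0 calls among 17 tested genes (limma; 0 with an unadjusted p under 0.05). Of 16 tested neuropeptides of other hypothalamic neurons 1 was called (6.25%, against 1.53% of all tested genes). It was Penk, the enkephalin precursor, lower by 0.16 (limma adjusted p = 0.042) and at -0.13 in DMSO. The call of Penk held in 1 of 7 omissions, and without the 4-day array of replicate 2 its change was -0.12 (adjusted p = 0.218). Calb2, the calcium-binding protein calretinin of interneurons, fell by 0.31 (limma adjusted p = 0.0129), and was lost only without that array (-0.26, adjusted p = 0.0818). Both Penk and Calb2 also stand on the list of cortical, striatal and thalamic markers. They were the 2 calls among its 18 tested genes (11.1%, against 1.53% of all tested genes). Of the 18, 11 lay below 0, with a median of -0.06 (DMSO -0.11). The part of neighbouring tissue in these falls was not tested.

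Of 21 tested clock genes 2 passed, both as lower (9.52%, against 0.709% of all tested genes called lower). They were Nr1d2, the repressor REV-ERB beta, and Bhlhe40, the repressor DEC1. Nr1d2 read 11.53, 11.58, 11.58 and 11.49 at 6 h and 11.39, 11.39 and 11.35 at 4 days (log2 change -0.17, adjusted p = 0.0181; DMSO -0.03). Bhlhe40 read 9.41, 9.44, 9.64 and 9.58 at 6 h and 9.25, 9.25 and 9.26 at 4 days (-0.27, adjusted p = 0.042; DMSO 0.02). In neither gene did the groups overlap. The call of Nr1d2 held in 3 of 7 omissions and that of Bhlhe40 in 1; without the 4-day array of replicate 2 the adjusted p-values were 0.064 and 0.144, with no filter on level 0.0625 and 0.0943, and with only the groups compared 0.0817 and 0.0607. The core clock gene Per1 had 0.08, Dbp 0.05 and Arntl -0.05, none of them called. The labels do not give the hour of tissue collection. Cytosolic ribosomal protein genes lay above 0 in 28 of 35 tested members, with a median of 0.05 (DMSO 0.03); 0 passed on that list (limma; 7 had an unadjusted p under 0.05), and Rpl8 had 0.21 (adjusted p = 0.0515), passing under 6 alternatives. Off the list, Rpl10 and Rpl36 rose by 0.18 and 0.20 (adjusted p = 0.0221 and 0.0201; DMSO 0.13 and 0.12), genes picked out after their values were seen; their calls held in 2 and 3 of 7 omissions.

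**Figure D4:**
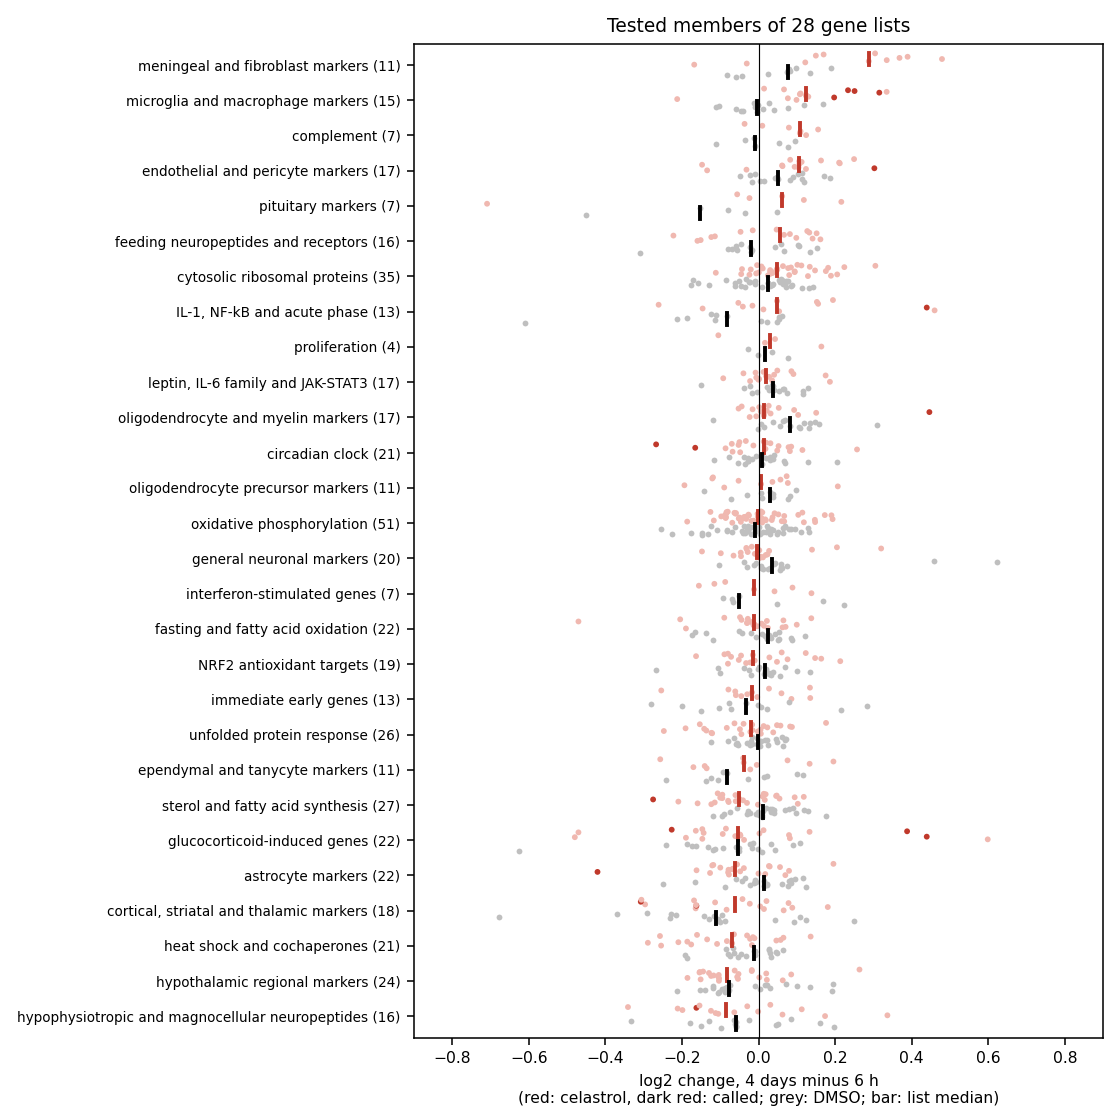
Log2 change from 6 h to 4 days of the tested members of 28 gene lists, in celastrol (red, upper row of each list; dark red if called) and in DMSO (grey, lower row); bars are list medians and numbers in brackets are tested members. Changes beyond 0.9 in size, of 3 genes (Gh, Cga and Slc6a3), are not drawn. The medians of meningeal (0.29) and microglia markers (0.12) lie farthest to the right, and most lists centre near 0. With no filter on level the meningeal median was 0.15.

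All 30 genes named for their size in this comparison were also tested alone, by an exact two-sided permutation of the 7 arrays over 35 assignments. The p-value was 0.0286, the smallest this design can give, in 26 of them and 0.0571 in the other 4; the genes were named for having no overlap between the groups, which leaves no other outcome, so these p-values add nothing to the calls. The number of calls rested on few arrays. It was 15 without the 4-day array of replicate 2, 28 without replicate 1 and 58 without replicate 3, and 46 to 124 when a 6 h array was left out. The direction of all 151 changes was kept in all 7 omissions. As the groups did not overlap in any of these genes, no other outcome was possible, so this adds nothing to the calls. Arf1, Gjb6, Idh1, Naa20 and Rtf2 as falls and Ly86, Ifi30 and Leng8 as rises passed in all 7.

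**Figure D5:**
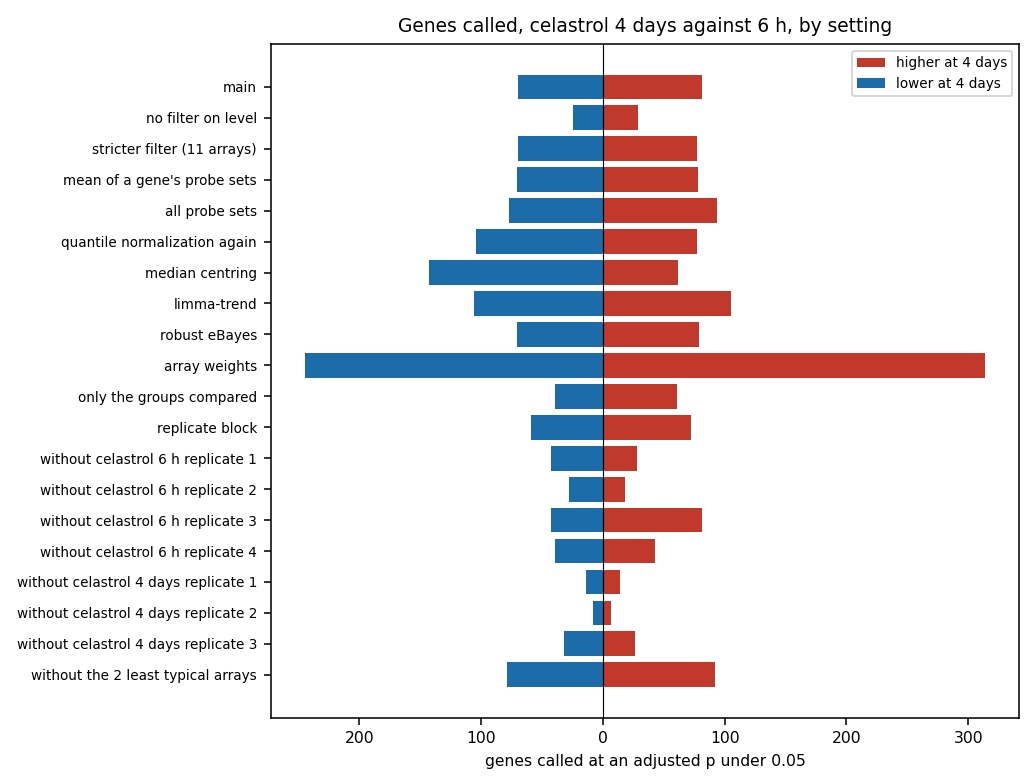
Number of genes called higher (red, right) and lower (blue, left) at 4 days against 6 h of celastrol, by analysis setting. The count of 151 (81 and 70) drops to 15 without the 4-day array of replicate 2 and rises to 559 with array weights.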

How the data were processed

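The authors deposited log2 intensities per probe set, summarised with RMA per the submitters' processing notes, and these were used unchanged. The files name no genome build for the probe sets. Of 23492 probe sets, 20228 carried 1 gene symbol, 1399 several and 1865 none. A gene with several probe sets was read from the brightest, which gave 18704 genes. A gene was tested if it lay above the array median on at least 3 of the 22 arrays, which left 9880. limma 3.58.1 in R 4.3.3 fitted 6 group means over all 22 arrays, and p-values were adjusted by Benjamini-Hochberg over all tested genes. The same fit gave the DMSO change and the difference of the changes. Intensities give no counts, and the number of arrays limits the precision. The arrays and gene lists were chosen with earlier results of these data known.

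Genes were named by rule: up to 15 called genes in each direction with the largest change and no overlap between groups, up to 5 each way in DMSO, up to 8 each way for the difference, 4 called members per list or else the 2 with the lowest p, and some genes of the feeding, inflammatory and clock pathways in every case. Of the last, Agrp and Il1r1 are not analysed here. Predicted and non-coding genes were counted, not named, except Malat1 and Rian, picked out after their values were seen. Alternatives changed the level filter, probe set choice, normalization, variance model, array weights, arrays in the fit, replicate block and each array. Other named genes and 4 short lists were chosen after seeing the data, as was the fit without the 2 least typical arrays. Promoter sequences came from RefSeq.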

Additional observations from a re-analysis of the deposited data

Results flagged for a closer look

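In groups of 4 arrays, 11 of 297 groups examined over 99 genes held an array farther from its neighbours than Dixon's 95% critical value of 0.829 (gap over range), where chance flags about 1 in 20 groups. Only 1 of the 11 lay in celastrol: Ctss read 9.61 on 6 h replicate 4 and 9.77 to 9.78 on the other 3 arrays (0.948), and without that array its log2 change was 0.27 in place of 0.32. The call was lost there and in 5 other omissions of 1 array.

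The other 10 lay in DMSO. At 4 days, replicate 2 was highest for Pld4 (0.859; 8.65 against 8.52 to 8.54) and Scrg1 (0.869; 10.48 against 10.38 to 10.39), and lowest for Siglech (0.91; 8.56 against 8.74 to 8.76). Replicate 1 of that time was lowest for Dcaf17 (0.832; 8.96 against 9.04 to 9.06) and highest for Dusp5 (0.89; 8.45 against 8.34 to 8.35). Replicate 4 was highest for Kcnj13, a choroid plexus channel (0.895; 8.89 against 7.11 to 7.29). At 6 h, replicate 2 was highest for Rtf2 (0.932; 10.33 against 10.20 to 10.21), Ifit3 (0.857; 9.12 against 8.96 to 8.98) and Gpr17 (0.88; 9.33 against 9.14 to 9.17), and replicate 1 was lowest for Lcn2 (0.873; 6.67 against 7.38 to 7.49).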

How the results depend on the processing

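The 151 celastrol calls became 54 with no filter on level, 100 with only the groups compared, 559 with array weights and 15 to 124 with 1 array left out. The 25 DMSO calls became 1 with no filter, 0 with only the groups compared, 45 with limma-trend, 105 with array weights and 0 to 147 with 1 array left out, and the 0 calls of the difference became 0 to 1. Fewer arrays enter the fit of the groups compared; the cause of the other shifts was not tested. The splits after repeated quantile normalization were 77 higher and 104 lower, and after median centring 62 and 143. The reversals were in genes that were not called: Cdkn1b was at 0.0209 with the mean of its probe sets, Ntsr1 at -0.00656 and Kl at -0.012 with quantile normalization, and at -0.00806 and -0.0166 with median centring. With 1 array left out, Kl ranged from -0.0685 to 0.0994, Lcn2 from -0.496 to 0.697, Osmr from -0.0152 to 0.339, Ntsr1 from -0.0384 to 0.0646 and Fkbp5 from -0.175 to 0.0459. Of the values of named genes in the celastrol comparison under the alternatives, 1633 kept direction and side of the threshold, 180 lost the call, 34 gained it and 17 reversed.

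Same-numbered replicates showed no marked shared deviation. Their correlations were -0.168, -0.0744 and -0.0788 in celastrol and 0.1, 0.118, -0.0547 and 0.0143 in DMSO. So few pairs cannot show whether the numbers pair the arrays, and the labels do not say. With the replicate block 131 genes were called in celastrol, 115 of them shared with the 151, and 22 in DMSO, and Lcn2 lay at -0.0117.

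With 3 and 4 arrays per group and changes mostly under 0.5, calls depend on single arrays, above all on the 4-day array of replicate 2. Dim genes such as Socs3, Lepr and Fos could not be judged. Time, array batch and a possible difference in dose cannot be told apart in the celastrol arrays.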

Other observations

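Among the called genes, 5 encode RNAs retained in the nucleus or proteins and transcripts tied to splicing, a grouping made after the values were seen. Malat1, a long nuclear RNA, read 12.27, 12.39, 12.46 and 12.38 at 6 h and 12.88, 13.04 and 12.71 at 4 days of celastrol, a rise of 0.51 (limma adjusted p = 0.0257) with 0.10 in DMSO. Rian, an imprinted non-coding RNA, rose by 0.52 (adjusted p = 0.0129; DMSO 0.32). Clk4, a kinase of splicing factors, rose by 0.28 and Pnisr, a serine and arginine rich protein, by 0.18. Without the 4-day array of replicate 2, only Leng8 of the 5 was called, and Malat1 had 0.42 (adjusted p = 0.146). A further 12 tested genes of this kind were listed apart from the called ones, so their 0 calls are no result. Of the 12, 8 had an unadjusted p under 0.05 (limma) and all 12 lay above 0, with a median of 0.13. In DMSO 10 of 12 lay above 0, with a median of 0.10.

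Beside Arf1 and Copz1, the vesicle GTPases Rab2a and Rab35 fell by 0.26 each (limma adjusted p = 0.0309 and 0.0262; DMSO -0.14 and -0.02). Id2, an inhibitor of basic helix-loop-helix factors, read 12.27, 12.20, 12.21 and 12.27 at 6 h and 11.97, 11.97 and 11.99 at 4 days, a fall of 0.26 (adjusted p = 0.0129) with 0.02 in DMSO. Cd200, a neuronal ligand of a microglial receptor, fell by 0.16 and the chemokine Cxcl14 by 0.22 (adjusted p = 0.0353 and 0.0257). Gabra3, a GABA receptor subunit, fell by 0.22. Without the 4-day array of replicate 2 none of Rab2a, Rab35, Id2, Cd200, Cxcl14 and Gabra3 was called (limma adjusted p from 0.0526 to 0.139). Apart from Id2, these were picked out after their values were seen.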
